A study of Homo sapiens with 6 samples.

Results

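GC-rich promoters of protein-coding genes were examined for how many of them lay in open chromatin, how wide and how strongly scored that open chromatin was, and whether any of this differed after 30 min of zinc depletion or zinc excess. A member was a protein-coding gene on chromosomes 1 to 22 or X in GENCODE release 44, with 1 start site per gene at the 5′ end of the gene record, a GC content of at least 60% in the hg38 sequence within 500 bp on either side of that start site, and no start site of another protein-coding gene on the opposite strand within 1000 bp. The rule found 7831 members among 19970 protein-coding start sites. The rule used sequence and annotation only, and no measured value. The remaining start sites were 9460 stand-alone promoters of lower GC content, called GC-poor here, and 2679 promoters with a protein-coding neighbour starting on the other strand, called head-to-head. The cells were MCF10A, an established non-tumorigenic human mammary epithelial line, in 3 groups of 2 ATAC-seq libraries. The control cells were untreated, the TPA cells received 50 μM tris(2-pyridylmethyl)amine, a Zn2+ chelator that enters cells, and the ZnCl2 cells received 30 μM ZnCl2. All 3 groups were first kept for 30 min in a phosphate-free salt buffer, and each treatment lasted 30 min. All libraries come from 1 cell line, and since the labels do not state that replicates came from separate cultures, the p-values measure only the spread between these libraries. A start site was called open in a library when a region of that library's open chromatin list covered it.

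In mammalian genomes most GC-rich promoters are CpG islands, stretches in which the dinucleotide CG has been kept because it is rarely methylated there. Such promoters serve housekeeping genes in nearly every cell, and they also serve developmental regulators that Polycomb complexes hold silent in most tissues. Factors of the SP and KLF families, whose zinc fingers read the GC box, ETS factors, NRF1 and the CCAAT-binding factor NF-Y are commonly bound there, and nucleosomes are displaced around the start site of active genes. ATAC-seq detects that displacement because Tn5 transposase inserts adapters into accessible DNA.

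The stretch of 150 bases of hg38 just before the start site is shown for 4 members that the results turn on, in lower case with GC boxes, GGGCGG on either strand, in capitals. NSD2, a histone H3 lysine methyltransferase gene, and CPLX1, which encodes the synaptic protein complexin, are printed because both have a very high GC content around the start site, 83.6% and 84.5%, and differ in being open in all 6 libraries and in none. FARP2 is the member with the highest mean rank in the lists. EMP2, which encodes an epithelial tetraspan membrane protein, is printed because its rank was far lower in both TPA libraries.
NSD2, chr4:1871243-1871392, plus strand: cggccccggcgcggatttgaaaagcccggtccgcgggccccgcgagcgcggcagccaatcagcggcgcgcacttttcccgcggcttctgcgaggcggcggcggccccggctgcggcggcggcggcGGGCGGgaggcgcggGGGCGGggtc
CPLX1, chr4:826130-826279, minus strand: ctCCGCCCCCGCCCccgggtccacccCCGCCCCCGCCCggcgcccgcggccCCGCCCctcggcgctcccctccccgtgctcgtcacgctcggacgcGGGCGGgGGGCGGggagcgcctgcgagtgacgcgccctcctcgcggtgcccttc
FARP2, chr2:241356135-241356284, plus strand: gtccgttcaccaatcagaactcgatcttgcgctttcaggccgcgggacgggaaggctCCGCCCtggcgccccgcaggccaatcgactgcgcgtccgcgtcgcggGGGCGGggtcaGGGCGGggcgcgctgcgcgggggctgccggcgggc
EMP2, chr16:10580633-10580782, minus strand: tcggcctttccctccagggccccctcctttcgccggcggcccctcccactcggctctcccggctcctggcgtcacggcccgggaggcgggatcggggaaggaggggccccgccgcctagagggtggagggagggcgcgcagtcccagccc
The CPLX1 stretch held 7 GC boxes and 26 CG dinucleotides, the NSD2 stretch 2 GC boxes and 30 CG dinucleotides, the FARP2 stretch 3 GC boxes, and the EMP2 stretch none.

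The lists differed in length, which bears on every comparison. Between 18887 and 44641 regions per library lay on the assembled chromosomes, with the shortest list in ZnCl2 replicate 2 and the longest in control replicate 2, and the lists hold no read counts, so sequencing depth is unknown. The shares by promoter class and the comparisons between groups are therefore given with all regions of each list and again with the 18887 highest-scored regions of each library, called the equal-number lists, while motif shares and counts over gene lists are from all regions unless stated. Each region also carries a whole-number score from the authors' caller, and its percentile is the share of regions in the same list with a lower score. Regions over 10 kb covered 279 members in TPA replicate 2 and between 3 and 92 in the other libraries. Of the marker genes of other cell types with a GC-rich promoter, 0 of 4 fibroblast, immune and endothelial markers were open in all 6 libraries, 2 were open in none, and 2 were open in some: COL1A1 in control replicate 2, and KDR in control replicate 2 and both ZnCl2 libraries.

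With all regions, 60.03% and 71.7% of the 7831 GC-rich promoters were open in the control libraries, 62.6% and 64.8% in the TPA libraries, and 71.6% and 55.6% in the ZnCl2 libraries. Across libraries, 4010 members (51.2%) were open in all 6, 1996 (25.5%) in none and 1825 (23.3%) in 1 to 5. With the equal-number lists 3057 (39.0%) were open in all 6 and 2782 (35.5%) in none. GC-poor promoters were open in 25.2% to 36.8% of cases. The GC-rich share was higher in every library, by a mean of 33.4 percentage points (two-sided exact sign-flip test over 6 libraries, p = 0.03125, the smallest p that 6 libraries can give). Head-to-head promoters were open more often still, and the GC-rich share was lower than theirs by a mean difference of -19.9 percentage points, in 6 of 6 libraries (exact sign-flip test, p = 0.03125). In the equal-number lists, the GC-rich shares were 54.0% and 56.3% in the control, 46.7% and 46.3% in TPA libraries and 58.8% and 55.6% in ZnCl2 libraries. The GC-rich share stood 28.7 percentage points above the GC-poor share there, again in every library (exact sign-flip test, p = 0.03125).

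**Figure D1:**
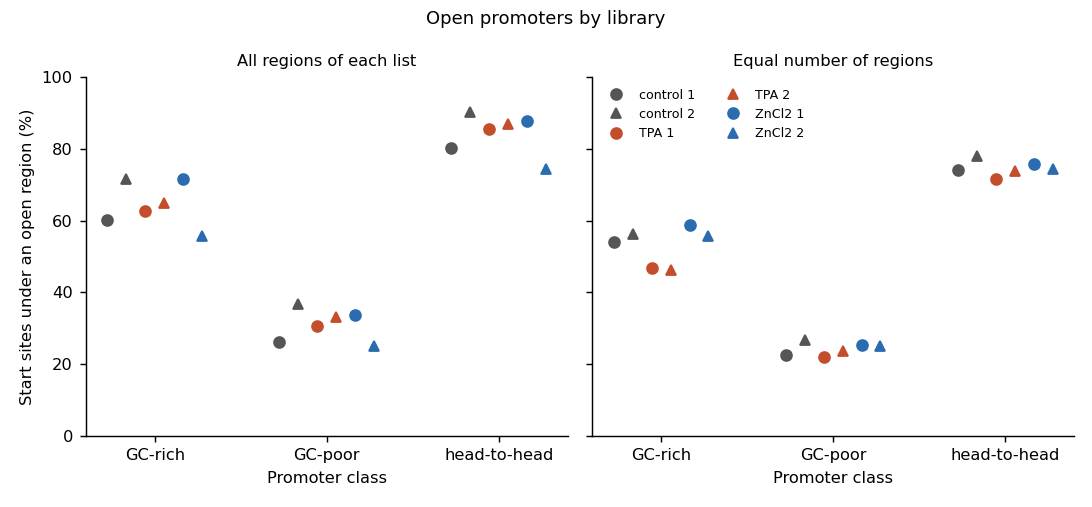
Share of start sites under an open region (%) for GC-rich, GC-poor and head-to-head promoters, with 1 point per library, circles for replicate 1 and triangles for replicate 2, from all regions (left) and from equal-number lists (right). In the right panel both TPA libraries sit at 46.7% and 46.3% for GC-rich promoters, below both control libraries at 54.0% and 56.3%.

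The region on an open GC-rich promoter had a median width of 1800 and 2960 bp in the control libraries, 1990 and 2005 bp in the TPA libraries, and 2310 and 2740 bp in the ZnCl2 libraries. It was wider than the region on an open GC-poor promoter by 456 bp on average, in all 6 libraries (exact sign-flip test, p = 0.03125). Its median percentile was 69.2 and 80.6 in control libraries, 70.3 and 72.9 in TPA libraries and 78.0 and 66.6 in ZnCl2 libraries, which was 4.22 points above GC-poor and -6.57 points relative to head-to-head promoters (exact sign-flip test, p = 0.03125 for each). The regions were not centred on the start site. They reached between 357 and 609 bp farther downstream, into the gene, than upstream, by the median of each library, with a mean of 450 bp over the 6 libraries (exact sign-flip test, p = 0.03125). Head-to-head promoters showed a mean of -11.7 bp in the same measure. GC-poor promoters leaned downstream as well, by a mean of 477 bp (exact sign-flip test of the difference from GC-rich, p = 0.09375). In the equal-number lists the means were 440 bp for GC-rich and 504 bp for GC-poor promoters (exact sign-flip test, p = 0.03125). At 1000 bp downstream, between 32.8% and 63.0% of all members were still covered, against 13.1% to 40.01% at 1000 bp upstream. Between 7.93% and 10.2% of open members shared their region with another member, so their widths and percentiles are not independent.

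**Figure D2:**
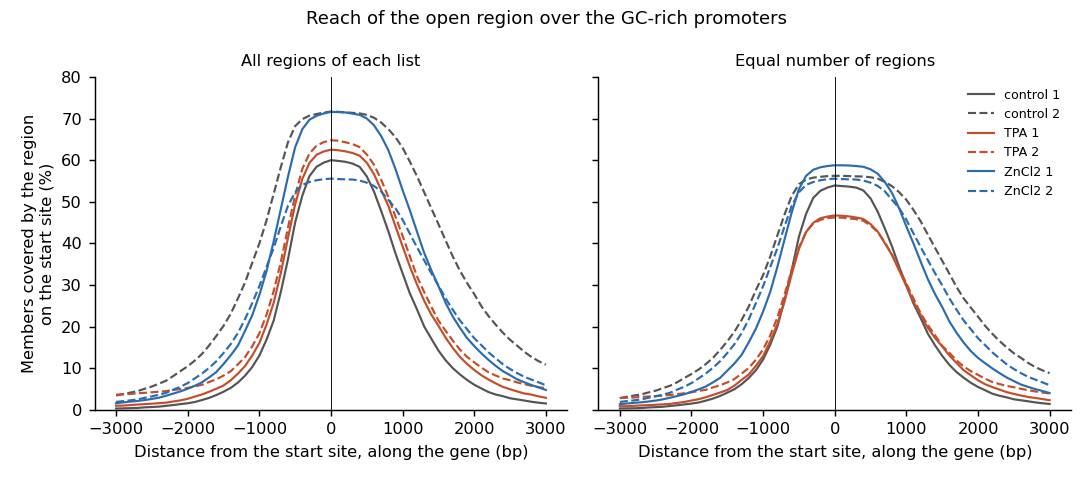
Share of all GC-rich promoters (%) covered by the region on the start site, against distance from the start site along the gene (bp), with 1 line per library (solid for replicate 1, dashed for replicate 2), from all regions (left) and equal-number lists (right). The curves fall off more slowly downstream (right of 0) than upstream in every library, and control replicate 2 has the broadest curve.

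Within the members, openness did not keep rising with GC content. With all regions, the share open in control replicate 1 was 56.3% at 60 to 65% GC, 63.6% at 65 to 70%, 63.0% at 70 to 75% and 58.3% at 75% or more. The other libraries also had their highest share at 65 to 70% GC. The threshold of the rule fell on a smooth part of the curve: of 636 stand-alone promoters just below it, at 59 to 60% GC, between 49.4% and 64.2% were open by library, and of 667 just above it, at 60 to 61%, between 48.9% and 65.1%. Regions on the most GC-rich members were the widest, with medians of 2250 to 3670 bp at 75% GC or more against 1630 to 2685 bp at 60 to 65%. Their percentiles were the lowest of the 4 GC classes in every library, with medians of 57.0 to 73.4 against 66.6 to 81.7. CpG content separated the members more than GC content did. Among 543 members with fewer than 0.4 times the CG dinucleotides that their base composition predicts, between 14.7% and 29.5% were open by library, whereas among 3795 members at 0.8 or more, between 65.4% and 82.7% were open. Of the first group 65.7% were open in no library, and of the second group 15.5%. With equal-number lists the open shares were 11.05% to 18.0% and 55.4% to 69.6% by library.

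**Figure D3:**
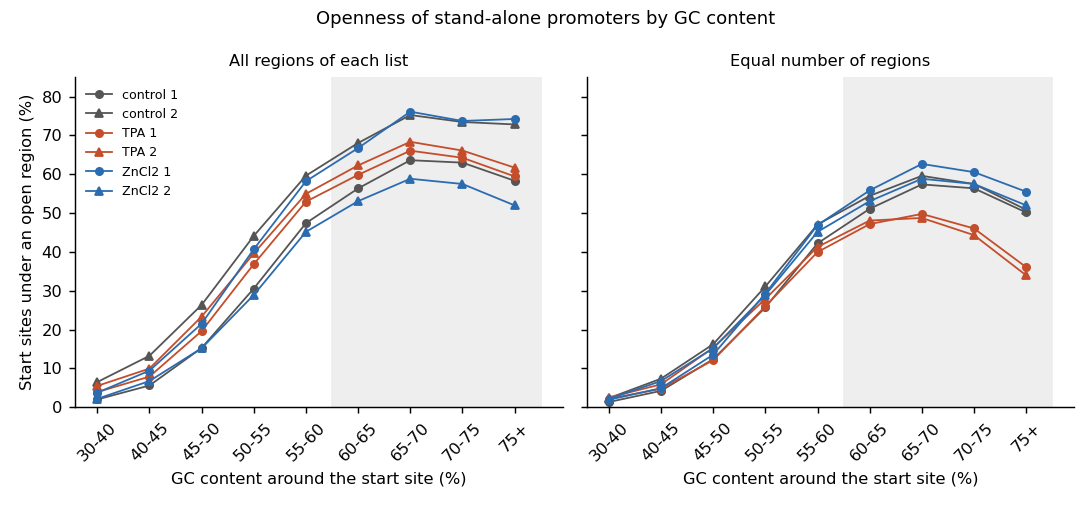
Share of stand-alone promoters open (%) by GC content within 500 bp of the start site (%), with 1 line per library, from all regions (left) and equal-number lists (right). The grey band marks the GC-rich members. In the right panel the TPA lines fall to 36.1% and 33.9% at 75% GC or more, where the other 4 libraries lie between 50.1% and 55.5%.

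Short motifs were counted on both strands from 250 bp before to 50 bp after each start site, and a match is a description of the letters only. A GC box, GGGCGG, was present in 79.9% of members and in 52.4% of all protein-coding promoters. It was found in 83.9% of the members open in all 6 libraries and in 72.6% of those open in none. The ETS core CCGGAAG was found in 16.4% of members open in all 6 and 4.36% of those open in none, and the NRF1 core CGCATGCG in 3.87% and 0.952%. The CCAAT box, CCAAT, stood in 39.0% and 23.4%, and the YY1 core AAGATGG in 5.19% and 3.46%. TATAAA, the TATA box, had the opposite order, at 3.12% and 6.36%. The E-box CACGTG, at 9.70% and 9.82%, the cyclic AMP response element TGACGTCA, at 3.04% and 2.40%, and the AP-1 site TGANTCA, at 3.47% and 3.11%, were about as frequent in both. A pair of core forms of the metal response element, which the zinc-sensing factor MTF1 reads, were searched as well, and TGCGCNC was found in 37.3% and 33.9% and TGCACNC in 11.5% and 17.7%. These shares over all protein-coding promoters were 11.9% for the ETS core, 2.47% for NRF1, 35.9% for the CCAAT box, 5.62% for YY1, 10.8% for the TATA box, 8.35% for the E-box, 2.29% for the cyclic AMP element, 6.38% for AP-1, 22.7% for TGCGCNC and 13.4% for TGCACNC. Each motif was counted on its own, so that matches of different motifs could share bases.

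The members at the extremes show the range. FARP2, which encodes a guanine nucleotide exchange factor, SRGAP2, a regulator of neuronal migration with near-identical copies whose reads are therefore uncertain, GRSF1, a mitochondrial RNA-binding protein gene, and UCKL1, a uridine kinase homologue gene, had the highest mean percentiles. FARP2 stood between 99.88 and 99.98 in the 6 libraries, and SRGAP2 between 99.87 and 99.97. The greatest median widths were at ZNF57, ATP6V0E1, GSTT2B and MROH6. The MROH6 region was 4.38 to 19.7 kb wide, whereas the others had a region under 3.5 kb in at least 2 libraries. ATP6V0E1, a proton pump subunit gene, had a region of 3.25 and 33.6 kb in the control libraries, 29.7 and 29.9 kb in the TPA libraries, and 2.15 and 3.35 kb in the ZnCl2 libraries. Of the members open in all 6, AGO2, the argonaute protein that cuts RNA, had the highest GC content at 84.4%, followed by NSD2 and by CMIP at 82.6%. AGO2 had percentiles of 84.1 and 95.4 in the control libraries, 59.4 and 67.0 in the TPA libraries, and 87.6 and 62.1 in the ZnCl2 libraries. CPLX1, CACNA1H, a calcium channel gene, and CASKIN1, a synaptic scaffold gene, at 84.5%, 84.1% and 83.0% GC, were open in none.

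Gene groups differed widely in how often their GC-rich promoters were open. Immediate early and AP-1 genes, which answer growth signals within minutes, were open in all 6 libraries at 16 of 18 members. EGR1, a zinc finger factor of this group, lay between the percentiles 99.5 and 99.7 in all 6 libraries. Targets of p53 were open in all 6 at 11 of 13 members, among them RRM2B, a ribonucleotide reductase subunit, at percentiles of 99.4 to 99.7, and MDM2, the ubiquitin ligase that degrades p53, at 37.1 to 76.5. Antioxidant genes of the NRF2 pathway were open at 11 of 13, proteasome subunits at 6 of 7, DNA replication and cell cycle genes at 12 of 16, KLF and SP factors at 12 of 17, heat shock chaperones at 7 of 10 and cytosolic ribosomal proteins at 13 of 20. For CTCF, cohesin and DNA methylation genes the count was 10 of 15, for cytosolic tRNA synthetases 4 of 5, for RNA polymerase II subunits 2 of 4 and for respiratory complex I subunits 2 of 4. CTCF itself, the insulator protein, had percentiles of 96.2 and 96.1 in control libraries, 80.05 and 86.9 in TPA libraries and 98.2 and 96.5 in ZnCl2 libraries. The share over all members was 51.2%.

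Developmental genes were mostly closed. Of 92 developmental transcription factor promoters, 24 were open in all 6 libraries and 56 in none, and of 17 HOX promoters 2 were open in all 6 and 11 in none. Secreted Wnt, BMP, FGF and Hedgehog ligands were open in all 6 at 5 of 31 and in none at 14, and neuronal ion channels and receptors at 5 of 44 and in none at 29. Exceptions stood high in the lists: SIX2, a homeobox factor of kidney progenitors, had percentiles of 94.4 to 96.7, and WNT9A of 92.1 to 98.2. The start of the gene record is not always the start that a cell uses. No region covered it in any library for EGR2, RPL22 and MARS1, while at the MANE Select start site, the transcript chosen jointly by Ensembl and RefSeq, all 3 were open in 6 of 6 libraries.

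**Figure D4:**
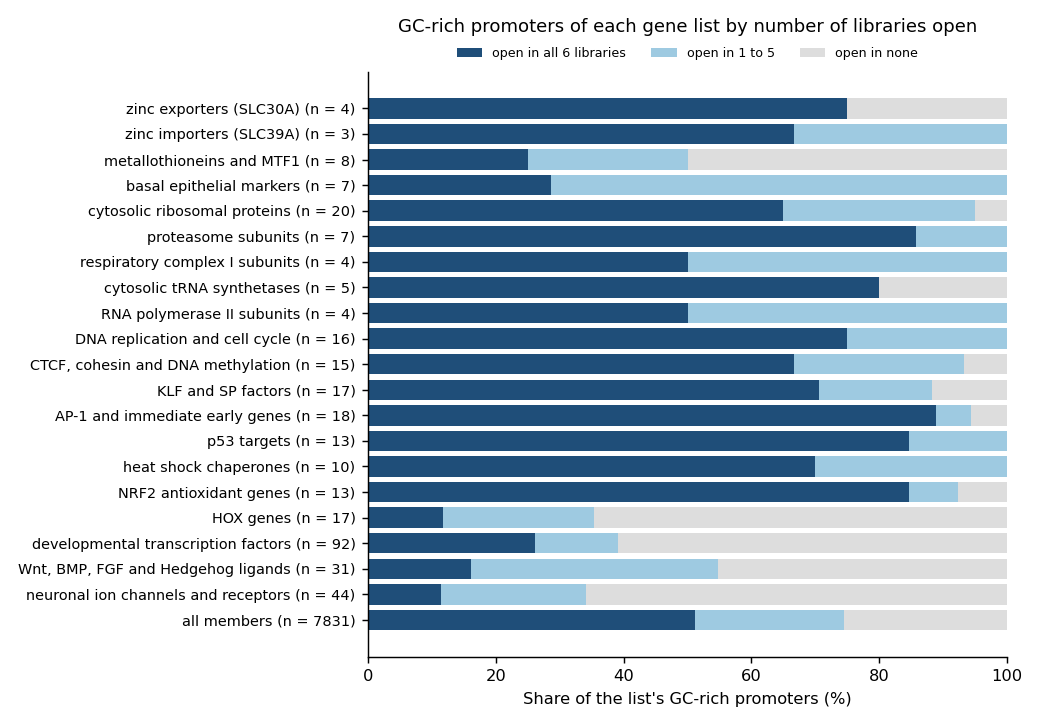
Share of each list's GC-rich promoters (%) open in all 6 libraries (dark), in 1 to 5 (light) and in none (grey), for lists with at least 3 members, with the number of members beside each name. Immediate early genes reach 16 of 18 open in all 6, and HOX genes 2 of 17.

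Of 7 basal markers with a GC-rich promoter, ITGA6 and ITGB4, the subunits of the hemidesmosome integrin, were open in all 6 libraries, and the other 5 in 3 to 5. KRT17, a basal keratin, had percentiles of 0.0 and 42.8 in control libraries, 76.0 and 73.8 in TPA libraries and 55.05 in ZnCl2 replicate 1, and was not open in ZnCl2 replicate 2, the shortest list. KRT14 was open in 4 libraries, with percentiles of 41.9 to 53.2. EGFR, the receptor for epidermal growth factor, had percentiles of 52.4 and 69.8 in control libraries, 37.4 and 32.2 in TPA libraries and 73.7 in ZnCl2 replicate 1, and LAMA3, a laminin subunit, of 16.8 and 57.0, 10.1 and 20.7, and 64.8 in the same order. CDH1, which encodes E-cadherin, was open in neither control library, in both TPA libraries at percentiles of 30.8 and 98.6, and in ZnCl2 replicate 1 at 18.6. In the control libraries the nearest region ended 29032 and 18249 bp from the CDH1 start site. Among luminal markers, KRT18 was open in all 6 libraries and KRT19 in none.

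Cells lower cytosolic zinc with SLC30A exporters, raise it with SLC39A importers and buffer it with metallothioneins, and MTF1 turns several of these genes on when zinc is high. SLC30A1, the exporter of the plasma membrane, had percentiles of 99.3 and 99.5 in control libraries, 99.5 and 99.4 in TPA libraries and 99.4 and 98.6 in ZnCl2 libraries. It was near the top of every list, and the groups overlapped. SLC30A5 stood at 89.3 and 96.8, 94.6 and 95.8, and 91.9 and 88.2 in the same order. SLC30A4 stood at 54.7 and 64.7 in control libraries, 41.5 and 20.7 in TPA libraries and 79.6 and 28.7 in ZnCl2 libraries, so that both TPA values were below both control values and the ZnCl2 values lay on either side. SLC30A2 was open in none. Among importers, SLC39A14 had percentiles of 74.5 and 80.6, 62.1 and 72.1, and 86.5 and 58.8, and SLC39A3 of 37.1 and 68.2, 63.4 and 65.9, and 66.6 and 13.9. SLC39A4 was open in ZnCl2 replicate 1 alone, at 88.2. Limma, a moderated linear model, was fitted to all promoters open in all 6 libraries, so SLC30A2 and SLC39A4 were not tested. None of the other transporter genes named here passed an adjusted p of 0.05 for either treatment. For SLC30A4 the TPA minus control difference was -28.6 ± 19.4 percentile points (SE, limma adjusted p = 1.00) and for SLC39A14 it was -10.4 ± 10.7 (SE, limma adjusted p = 1.00).

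Metallothionein promoters lie side by side on chromosome 16, and 7 of them were members. MT1X was open in 5 libraries, with percentiles of 66.1 and 75.3 in control libraries, 65.9 and 65.9 in TPA libraries and 59.7 in ZnCl2 replicate 1, and MT1F in the same 5 libraries at 13.1 to 52.3. MT1E was open in all 6, at 34.2 and 70.6 in control libraries, 43.4 and 36.3 in TPA libraries and 87.9 and 25.3 in ZnCl2 libraries, and the groups overlapped. MT1G, MT1H, MT1M and MT3 were open in none. MTF1, the eighth gene of this list, was open in all 6 at percentiles of 70.7 and 88.1, 82.1 and 92.0, and 84.7 and 81.1. Metallothionein genes are close copies of one another, so reads can be split between them and these values are uncertain. The MT1X promoter, open in 5 libraries, is printed beside that of SLC30A1, open in all 6, with GC boxes in capitals.
SLC30A1, chr1:211579162-211579311, minus strand: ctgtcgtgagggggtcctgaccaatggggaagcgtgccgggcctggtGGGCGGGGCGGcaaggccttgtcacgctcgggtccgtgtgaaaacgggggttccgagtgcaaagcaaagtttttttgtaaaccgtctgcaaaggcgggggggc
MT1X, chr16:56682320-56682469, plus strand: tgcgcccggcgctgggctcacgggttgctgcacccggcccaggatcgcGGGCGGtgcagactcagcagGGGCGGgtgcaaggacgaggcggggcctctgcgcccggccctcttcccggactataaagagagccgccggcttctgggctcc
Both stretches carried 2 GC boxes, with 12 CG dinucleotides at SLC30A1 and 16 at MT1X.

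**Figure D5:**
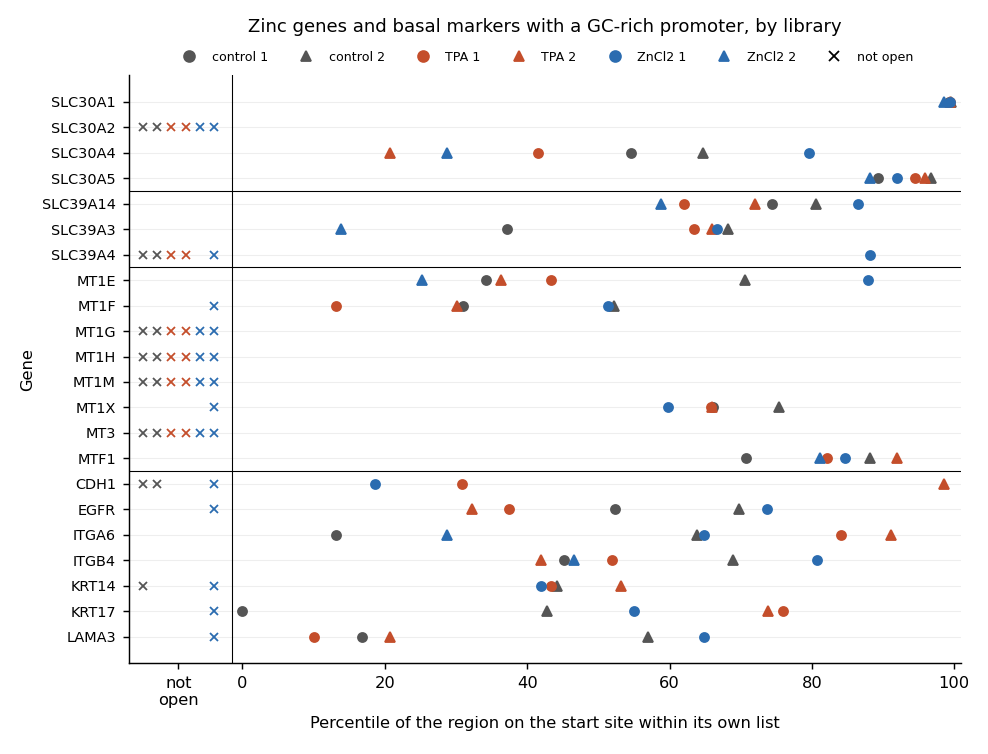
Percentile of the region on the start site within its own list, on the horizontal axis, for zinc exporters, zinc importers, metallothioneins with MTF1, and basal markers, in blocks from top to bottom with 1 gene per row. Circles are replicate 1 and triangles replicate 2, and crosses at the left mark libraries in which the start site was not open. The 6 points of SLC30A1 lie together above 98, while those of MT1E run from 25.3 to 87.9.

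The comparison of TPA with control asks whether 30 min of zinc depletion is followed by a difference in open chromatin at GC-rich promoters. With all regions the mean open share differed by -2.19 percentage points (63.7% ± 1.60 with TPA and 65.9% ± 8.27 in the control, SD, n = 2 each; two-sided exact permutation test, p = 1.00), and the control values lay on either side of the TPA values. In the equal-number lists the difference was -8.61 percentage points, with both TPA libraries below both control libraries (exact permutation test, p = 0.333, the smallest p that 2 libraries against 2 can give). GC-poor promoters differed by 0.465 points with all regions and by -1.72 points in the equal-number lists. The lower equal-number share was not confined to members. Just below the threshold, at 55 to 60% GC, the difference was -4.00 points, with both TPA libraries below both control libraries. It was -5.15 points at 60 to 65% GC and -1.45 points at 50 to 55%. For head-to-head promoters, TPA libraries had equal-number shares of 71.7% and 73.7%, lower than the control shares of 74.2% and 78.0%. The TPA minus control difference was more negative for GC-rich than for GC-poor promoters by -2.66 points with all regions and by -6.90 points in the equal-number lists, without overlap of the 4 libraries in either case (exact permutation test, p = 0.333 for each). This design cannot pass 0.05. Leaving out 1 library at a time kept the equal-number difference of GC-rich promoters between -9.78 and -7.45 points. With all regions, their difference was 3.66 points without control replicate 2, the longest list.

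The equal-number gap grew with GC content. At 60 to 65% GC, 51.1% and 54.4% of members were open in control libraries and 47.2% and 48.1% in TPA libraries, and at 75% or more, 50.1% and 50.8% were open in control libraries and 36.1% and 33.9% in TPA libraries. ZnCl2 libraries had 55.5% and 52.0% in that top class. The fall from the lowest to the top GC class was -0.952 and -3.59 points in the control and -11.1 and -14.1 points with TPA, a difference of -10.3 points (exact permutation test, p = 0.333). With all regions it was -3.86 points, again without overlap (exact permutation test, p = 0.333).

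Single promoters were called lost with TPA when they were open in both control libraries and neither TPA library, and gained in the reverse case. With all regions, 79 members were lost and 11 gained, which was 1.01% and 0.140% of members, against 0.611% and 0.25% of all 19970 start sites. The lost members were 1.69% of the 4685 members open in both control libraries, and for GC-poor promoters that share was 1.34%. With 1 library left out, 505 members were lost without control replicate 1, 191 without TPA replicate 2, and 332 were gained without control replicate 2. Leaving out a library can only keep or raise these counts, because fewer libraries then have to meet the rule. Among equal-number regions 471 members were lost and 45 gained, 6.01% and 0.575% of members, against 3.49% and 0.661% of all start sites. As a share of the promoters open in both control libraries, 11.7% of members, 7.02% of GC-poor and 4.40% of head-to-head promoters were lost. Of those open in neither control library, 1.39% of members, 0.907% of GC-poor and 4.89% of head-to-head promoters were gained. Most equal-number losses still had a region in the full lists: 411 of the 471 had a region in both full TPA lists, 43 in 1 and 17 in neither. Their median percentile in the full lists was 50.1 and 72.0 in control libraries, 28.5 and 38.3 in TPA libraries and 72.4 and 46.6 in ZnCl2 libraries. A GC box was present in 88.1% of the 471, against 79.9% of members, and a CCAAT box in 15.7%, against 30.9%. The NRF1 core stood at 0.849% against 2.87%, the cyclic AMP element at 0.637% against 2.80% and the TATA box at 1.49% against 4.27%. The E-box was at 6.16% against 9.97%, YY1 at 2.76% against 4.52% and AP-1 at 2.76% against 3.58%. The ETS core was at 10.4% against 12.1%, TGCACNC at 12.1% against 13.5% and TGCGCNC, the other way, at 38.6% against 36.1%. The 471 had to be open in both control libraries, and their median GC content was 68.7%, against 66.3% of members. A CCAAT box was present in 39.0% of members open in all 6, 23.4% of those open in none and 21.6% of equal-number ZnCl2 gains. The GC box shares were 83.9%, 72.6% and 78.4% in the same order. Whether any motif goes with loss was not tested.

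Among the losses, MACIR, a regulator of macrophage cytokine secretion, had percentiles of 82.5 and 90.5 in the control and 93.1 and 91.4 with ZnCl2, and in the TPA libraries the nearest region lay 137590 and 137239 bp away. This promoter was open in 4 libraries and wholly without a region in its neighbourhood in the other 2. For ASMTL, which lies in the region shared by the sex chromosomes, and MICOS10, also lost, a region ended 22 and 2 bp and 294 and 104 bp from the start site in the TPA libraries, and both were open in all 6 at their MANE Select start site. GTF2IRD2B had the highest percentiles of any lost member, 98.9 and 99.1 in the control and 94.6 in ZnCl2 replicate 2, but it has a near-identical copy, so its reads are uncertain. Over the 79 losses, 4 had a region within 500 bp of the start site in both TPA libraries, and the farther of the nearest regions lay a median of 11600 bp away. Gains were led by DDTL, a near copy of the neighbouring gene DDT whose reads are therefore uncertain, at percentiles of 99.6 and 99.3 with TPA and 99.3 in ZnCl2 replicate 1, where a region of 28.3 to 29.4 kb covered it. In the other libraries a region lay 218 to 238 bp from its start site. CGB5, a chorionic gonadotropin subunit gene with near-identical copies, CDH1 and NAF1, a ribonucleoprotein assembly factor, followed.

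In the equal-number lists, 84.6% and 92.3% of the 13 NRF2 antioxidant promoters were open in the control libraries, 53.8% and 61.5% in the TPA libraries and 84.6% and 92.3% in the ZnCl2 libraries. At PGD, a pentose phosphate enzyme of that list, the percentile was 94.8 or more in every library, and at GCLM, a glutathione synthesis subunit, it lay between 80.8 and 94.8, so both were open in all 6 libraries. For the 17 KLF and SP factors the shares were 70.6% and 82.4%, 58.8% and 64.7%, and 76.5% and 76.5% in the same order. These 2 were among 10 of 24 lists whose shares in both TPA libraries were below those in both control libraries, as they were over all members, at 46.7% and 46.3% against 54.0% and 56.3%. Targets of p53 were the 1 list above, with 100% in each TPA library and 92.3% in each control library, which rested on 1 of 13 promoters. Among the 10 lower lists, the zinc exporters rested on 1 of 4 promoters and the cytosolic tRNA synthetases on 1 of 5. Other lower lists were set apart by small steps too. The 15 CTCF, cohesin and DNA methylation promoters had 66.7% in each control and 60% in each TPA library. The 8 metallothionein and MTF1 promoters had 50% and 37.5% against 25% and 25%, and the 92 developmental factors 23.9% and 27.2% against 22.8% and 20.7%. Another 13 lists, the immediate early genes and heat shock chaperones among them, were in neither position. The lists were not tested.

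Over the 4010 members open in all 6 libraries, ranks were compared directly. Both TPA percentiles were below both control percentiles at 1169 members (29.2%) and above them at 358 (8.93%), against 23.4% and 10.5% of the 7880 protein-coding promoters open in all 6. Both directions were common among other promoters too. EMP2 had percentiles of 78.8 and 81.1 in control libraries, 15.9 and 15.5 in TPA libraries and 85.03 and 62.1 in ZnCl2 libraries. The TPA values were far below the other 4, and the limma difference of -64.3 ± 8.499 points (SE) had an adjusted p of 0.374. USP12, a deubiquitinase gene, had percentiles of 82.5 and 82.1, 15.9 and 23.3, and 86.5 and 69.3 in the same order, and INSR, the insulin receptor gene, of 84.1 and 80.1, 10.1 and 25.7, and 70.9 and 68.0. RAVER2, an RNA-binding protein gene, stood at 67.7 and 83.0, 6.79 and 12.6, and 82.1 and 62.1. In the other direction, GADD45B, a stress-response gene, had percentiles of 34.2 and 42.8 in control libraries, 74.2 and 72.1 in TPA libraries and 52.5 and 21.6 in ZnCl2 libraries. TRIM65, a ubiquitin ligase gene, had 34.2 and 36.0, 86.9 and 86.9, and 48.4 and 17.9. GNMT, a glycine methyltransferase gene, and UNC13D, a granule exocytosis gene, were the others with the widest gap between the TPA and the control values.

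By limma with Benjamini-Hochberg adjustment over all 7880 promoters, 0 of the 4010 members passed an adjusted p of 0.05 for the percentile with all regions (0% of all promoters), while 329 had an unadjusted p under 0.05, of which 320 were lower and 9 higher with TPA. Over all 7880 promoters 472 had an unadjusted p under 0.05, 456 lower and 16 higher. The balance among members depended on the scale and on 1 library. Without control replicate 2 the median TPA minus control difference over members was 1.40 points, against -1.52 points with all libraries. When percentiles were taken among the tested promoters only, 583 members were lower and 291 higher at an unadjusted p under 0.05. On that scale 48 lower and 12 higher of the 4010 members were called, against 62 lower and 25 higher of all 7880 promoters. With equal numbers of regions 3057 members were open in all 6, and 166 passed, 157 lower and 9 higher with TPA, against 3.81% lower and 0.272% higher over all 6254 promoters tested. The lower calls were 5.14% of the members tested, and the median difference over the members was -4.63 points, against -2.97 points over all promoters tested. By GC class, 3.66% of members at 60 to 65% GC, 4.46% at 65 to 70%, 9.61% at 70 to 75% and 4.78% at 75% or more were called lower. The following genes were chosen after their values were seen. GEMIN5, which assembles spliceosomal particles, had equal-number percentiles of 90.2 and 86.2 in control libraries, 0.0 and 0.540 in TPA libraries and 92.2 and 87.7 in ZnCl2 libraries, a TPA difference of -87.9 ± 3.33 (SE, limma adjusted p = 0.0188). VDAC1, the mitochondrial outer membrane channel, had 91.8 and 87.6, 20.1 and 25.3, and 69.1 and 72.9 (-67.0 ± 3.71, limma adjusted p = 0.0188). ACADM, a fatty acid oxidation enzyme, had 70.6 and 75.9, 8.71 and 9.21, and 77.8 and 81.1 (-64.3 ± 3.39, limma adjusted p = 0.0188). Of the 9 higher calls the one with the lowest p was GALK1, galactokinase, with 4.17 and 3.10 in control libraries, 63.5 and 62.7 in TPA libraries and 16.7 and 13.9 in ZnCl2 libraries (59.5 ± 2.85, limma adjusted p = 0.0188). Replicates of each condition lay close together at these 4 promoters. A small spread between replicates favours a low p, so this closeness is no separate support for the calls.

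A small set of members had very wide regions in both TPA libraries but not in the control or ZnCl2 libraries. Very wide regions as such were not particular to TPA. Those over 10 kb covered 92 members in control replicate 2, 43 in TPA replicate 1 and 279 in TPA replicate 2. The limma test on log2 width called 6 members wider with TPA and none narrower, against 0.127% of all promoters called wider. The members’ share of 0.150% was near that background, and 0.201% of GC-poor promoters were called wider. All 6 were named after their values were seen. At B3GLCT, a glucosyltransferase gene, the region was 2.07 and 2.19 kb wide in the control, 35.5 and 35.6 kb with TPA, and 1.82 and 2.65 kb with ZnCl2, which was 16.7-fold on the fitted scale (log2 difference 4.06 ± 0.33, SE, limma adjusted p = 0.0115). FAM114A1 went from 2.46 and 1.94 kb to 35.7 and 35.7 kb, EIF4B, a translation initiation factor gene, from 1.59 and 2.31 kb to 30.9 and 28.6 kb, and EEF2K, the kinase of elongation factor 2, from 3.20 and 3.05 kb to 35.2 and 35.2 kb (limma adjusted p = 0.0115 for each). MAVS, the mitochondrial antiviral signalling gene, went from 2.15 and 3.25 kb to 25.3 and 24.96 kb, and MRPL38, a mitochondrial ribosomal protein gene, from 1.37 and 1.65 kb to 12.4 and 11.9 kb (limma adjusted p = 0.0231 for both). The MRPL38 region in the TPA libraries was also the one that covered TRIM65. ZnCl2 widths at the 6 promoters lay between 1.51 and 3.34 kb. When width was counted only within 2000 bp of the start site, 0 members were called (62 at an unadjusted p under 0.05), so the calls rest on bases farther away. Over all 4010 members the fitted width difference had a median of -0.20 on the log2 scale. Each fit without 1 control or TPA library rested on a lone library in that group, so it cannot show whether the 6 calls hold. The median difference over members was -0.53 and 0.12 in the fits that dropped control replicate 1 and 2. It was -0.20 and -0.22 in those that dropped TPA replicate 1 and 2.

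The comparison of ZnCl2 with control asks the same of 30 min of zinc excess. The mean open share differed by -2.27 percentage points with all regions (exact permutation test, p = 0.667) and by 2.08 points in the equal-number lists (exact permutation test, p = 0.667), and the libraries of both groups overlapped in each case. Without ZnCl2 replicate 2, the shortest list, the difference with all regions was 5.76 points, and without control replicate 2, the longest, it was 3.58 points. With all regions, 3 members were lost and 3 gained, against 0.125% and 0.11% of all start sites. Leaving out 1 library, which can only keep or raise these counts, gave between 4 and 527 losses and between 9 and 160 gains. The 527 losses were without ZnCl2 replicate 1 and the 160 gains without control replicate 2. The losses were CHD1, which encodes a chromatin remodeller bound to active genes, POLGARF, an alternative reading frame of the mitochondrial polymerase gene POLG, and ENSG00000285978. CHD1 had percentiles of 78.8 and 94.6 in control libraries and 77.7 and 88.8 in TPA libraries, and in the ZnCl2 libraries the nearest region lay 153647 and 153922 bp away. For POLGARF a region ended 42 and 112 bp from the start site in the ZnCl2 libraries. The gains were ZNF124, ZBTB7B and MAPRE2, and of these ZBTB7B, a zinc finger repressor gene of the T cell lineage, had a region 21 and 11 bp from its start site in the control libraries. For ZNF124 the nearest control region lay 37731 and 20 bp away, and for MAPRE2 1893 and 143 bp away. ZBTB7B and MAPRE2 were both open in 6 of 6 libraries at their MANE Select start sites. The MAPRE2 site lay 64485 bp from the start of its gene record. With equal numbers of regions 37 members were lost and 102 gained, against 0.631% and 0.906% of all start sites. The gained members were 1.30% of members and the lost members 0.472%. Of the promoters open in neither control library, 3.16% of members, 0.994% of GC-poor and 2.15% of head-to-head promoters were gained. Of those open in both control libraries, 0.919% of members, 2.57% of GC-poor and 1.94% of head-to-head promoters were lost. The CHD1 promoter is printed because it was the loss without a nearby region, with its GC boxes in capitals.
CHD1, chr5:98929008-98929157, minus strand: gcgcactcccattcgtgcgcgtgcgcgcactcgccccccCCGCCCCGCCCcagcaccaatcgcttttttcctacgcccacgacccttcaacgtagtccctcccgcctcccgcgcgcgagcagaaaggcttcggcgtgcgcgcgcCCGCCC

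Among the members open in all 6 libraries, both ZnCl2 percentiles were below both control percentiles at 489 (12.2%) and above them at 118 (2.94%), against 13.7% and 2.73% of all promoters open in all 6. P2RY1, a purine receptor gene, had percentiles of 37.1 and 63.9 in control libraries, 43.4 and 38.3 in TPA libraries and 85.4 and 79.5 in ZnCl2 libraries. FAM193B had 87.7 and 84.5, 69.2 and 74.7, and 48.4 and 4.90 in the same order. PTAFR, the receptor for platelet-activating factor, METRN and SPTBN5 had the next widest gaps upward, and IQCE, ENSG00000256514 and ZNF524 downward. The MANE Select start site of PTAFR lay 17246 bp from the start of its gene record and was open in 0 libraries. By limma 0 members passed an adjusted p of 0.05 for the percentile with all regions (0% of all promoters), with 41 at an unadjusted p under 0.05, of which 36 were lower and 5 higher. Over all 7880 promoters 96 had an unadjusted p under 0.05, 88 lower and 8 higher. The balance turned with 1 library left out. The median ZnCl2 minus control difference over members was -2.20 points with all libraries. It was 1.38 points without control replicate 2 and 3.50 points without ZnCl2 replicate 2. In the equal-number lists limma also called 0 (0% of all promoters), with 229 at an unadjusted p under 0.05, 114 higher and 115 lower. Of all 6254 promoters tested there, 517 were at an unadjusted p under 0.05, 210 higher and 307 lower. For width, limma called 0 members (0% of all promoters), with 27 at an unadjusted p under 0.05, against 46 of all 7880 promoters. ZNF57 came nearest, with a region of 21.1 and 20.7 kb in the control, 23.01 and 22.7 kb with TPA and 2.20 and 1.64 kb with ZnCl2 (log2 difference -3.46 ± 0.32, SE, limma adjusted p = 0.0797). It was chosen as the member with the greatest median width, and its ZnCl2 libraries were the narrow ones. The TPA and ZnCl2 comparisons share the same control libraries, and whether they differ from each other was not tested.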

How the data were processed

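ATAC-seq libraries of MCF10A cells, 2 per group, were used as the open chromatin lists that the authors deposited, 1 list per library. The authors trimmed reads with BBDuk, aligned them to hg38 with HISAT2 2.1.0, handled alignments with SAMtools 1.8 and checked reads with FastQC 0.11.8, and called regions with HMMRATAC, which wrote the deposited whole-number score of each region. The HMMRATAC version and the kind of score are not given in the sources used here. Regions lay within hg38 chromosome lengths, those on other contigs were left out, and blacklisted regions were not removed again.

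Start sites and GC content came from GENCODE release 44 and hg38. Openness, width and percentile were computed in Python 3.11.15 with pandas 2.3.3 and pysam 0.24.0. Equal-number lists kept the 18887 highest scores, with ties broken at random from a fixed seed. Libraries were compared by exact permutation or sign-flip tests (two-sided, scipy 1.17.1). Promoters were compared with limma 3.58.1 in R 4.3.3, on percentile and log2 width of all protein-coding promoters open in all 6 libraries, with all groups in 1 fit and Benjamini-Hochberg adjustment at 0.05. On simulated data with 7880 promoters, all given the same spread, the TPA comparison called 6% of percentile shifts of 20 points and 100% of shifts of 60. It called 15% of log2 width shifts of 1. The real promoters differed in spread, so these rates need not hold for them. With all regions, the TPA difference at EMP2 was larger than 60 points and was not called. Alternatives covered list length, score, start site, GC threshold, head-to-head promoters, width limit and leaving out libraries. Depth is unknown, so no counting interval is given.

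Named genes were all zinc transporter, metallothionein and basal marker members, up to 4 examples of other lists, the 4 leading gains, losses and percentile gaps for each treatment and direction, the 4 highest percentiles and widths, and the 3 highest GC contents among members open in all libraries and in none. Others are named as chosen after their values were seen. Members and gene lists were chosen with earlier results of these data known.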

Additional observations from a re-analysis of the deposited data

How the results depend on the processing

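With equal-number lists the ZnCl2 minus control open share was 2.08 points in place of a negative value, and its GC-rich minus GC-poor contrast 1.43. Gained and lost members then numbered 45 and 471 for TPA and 102 and 37 for ZnCl2, and 166 percentile differences were called for TPA. When only the higher-scored 50% of regions were kept, TPA gained 28 and lost 213 and ZnCl2 lost 25. At the MANE Select start site the ZnCl2 contrast was 0.0746, TPA gained 18 and ZnCl2 lost 6, and ZnCl2 also lost 6 with head-to-head promoters kept. At a GC content of at least 65%, the GC-rich minus GC-poor percentile difference was 1.27 and no longer passed, TPA gained 4, and ZnCl2 gained 0 and lost 1. Percentiles taken among the tested promoters gave 60 calls for TPA, 48 lower and 12 higher, against 87 over all 7880 promoters. Width within 2000 bp gave 0 width calls for TPA, and 1 promoter per region gave 1 width call for ZnCl2. The cause of these changes was not tested.

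Leaving out 1 library at a time moved the open share from -8.04 to 3.66 points for TPA and from -10.3 to 5.76 for ZnCl2, the median width from -962.5 to 197.5 bp for TPA and from -435 to 725 bp for ZnCl2, and the median percentile from -8.96 to 2.47 for TPA and from -8.27 to 3.16 for ZnCl2. The ZnCl2 contrast ran from -4.01 to 3.41 points. TPA gains ran from 17 to 332 and losses from 84 to 505, and ZnCl2 gains from 9 to 160 and losses from 4 to 527, since 1 library against 2 is an easier rule to meet. TPA width calls ran from 0 to 180 and ZnCl2 width calls from 0 to 1, in fits that assume the lone library of a group to vary like the others. The GC-rich minus GC-poor differences lay between 32.6 and 34.0 points for openness, 429 and 475 bp for width, and 3.84 and 4.89 for percentile, where 5 libraries cannot reach 0.05. In equal-number lists with 1 library left out, chosen after seeing the data, the ZnCl2 open share difference was 0.919 and 3.24 without control replicate 1 and 2 and 0.472 and 3.69 without ZnCl2 replicate 1 and 2. The ZnCl2 contrast was 2.30 and 0.553 without control replicate 1 and 2, 2.998 without ZnCl2 replicate 2 and, with the sign turned, -0.146 without ZnCl2 replicate 1. TPA losses were 691, 603, 665 and 637 and gains 78, 123, 98 and 96 without control replicate 1 and 2 and TPA replicate 1 and 2. ZnCl2 losses were 121, 76, 203 and 92 and gains 205, 286, 178 and 279 without control replicate 1 and 2 and ZnCl2 replicate 1 and 2.

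The replicate 1 minus replicate 2 percentile differences correlated at 0.107 for control and TPA, -0.461 for control and ZnCl2, and -0.102 for TPA and ZnCl2, over 4010 promoters. List length ran in opposite orders, with 25031 and 44641 regions in control replicates 1 and 2 and 38069 and 18887 in ZnCl2 replicates 1 and 2. These correlations therefore cannot tell whether a shared replicate number marks a shared batch. With the replicate number as a block, 0 percentile differences were called for either treatment, and 8 and 0 width differences for TPA and ZnCl2. With the ZnCl2 numbers exchanged, a pairing added after seeing the data, the block gave 11 and 1 width calls.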
